A study of Mus musculus with 18 samples.

Results

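The genes of integrins and leukocyte adhesion molecules were followed in mouse kidney through the injury and repair that folic acid sets off. They number 33 of the 37991 Ensembl identifiers in the count table: 9 leukocyte genes, 14 genes of matrix-binding chains, 4 of epithelial chains and 6 of the vessel wall. They are listed by name and were found through the identifiers that map to their symbols. All 33 were found, and 29 had enough reads to be tested. Itgad, Itga11, Sele and Selp did not.

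Integrins are paired receptors, each made of an alpha and a beta chain, that fasten cells to matrix or to other cells. On leukocytes the chains that pair with Itgb2, such as Itgal, Itgam and Itgax, bind Icam1 and its relatives on other cells, while Itga4 binds Vcam1 and fibronectin. Selectins on activated vessels catch leukocytes through Selplg before integrins take hold. On epithelium, Itga6 with Itgb4 anchors cells to laminin, and Itgav with Itgb6 or Itgb8 releases TGF-beta from its latent form.

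The 18 libraries came from whole frozen kidney of male Balb/c mice, 3 from untreated animals and 3 each from 1, 2, 3, 7 and 14 days after 1 intraperitoneal injection of folic acid at 250 mg per kg in sodium bicarbonate. The controls are labelled as having no treatment, so folic acid cannot be told apart from the bicarbonate or the handling. No age was given in the sources used here, and nothing said that the 3 libraries of a group came from separate animals, so p-values measure the spread between these libraries, which may be technical. The labelled tissue was checked with 6 proximal tubule markers, whose summed level was 6522 to 7284 CPM (read counts scaled to the size of the library) in untreated kidney. That sum was 1445 to 1707 CPM at day 1, 1150 to 1249 at day 2, 1716 to 2061 at day 3, 971 to 1668 at day 7 and 1641 to 4555 at day 14. It was lower at every day, beside all the member changes given here, and its part in them was not tested.

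Reads assigned to genes ranged from 8.68 to 54.6 M per library, fewest in day 2 replicate 2. Mitochondrial genes took 59.0 to 75.6% of them, and the 33 adhesion genes together drew 7748 to 48805 reads. Levels are CPM after TMM scaling (a correction for differences in library composition), and changes come from 1 edgeR quasi-likelihood fit over all 18 libraries. A gene rose or fell where its Benjamini-Hochberg adjusted p over the 16824 genes tested was under 0.05. Errors after a level are SD with n = 3, and errors after a log2 fold change are SE. The 5 comparisons with untreated kidney share its 3 libraries. In whole kidney, more cells of a type and more RNA per cell cannot be told apart.

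Of the 33 genes, 12 rose at 1 or more days, 3 fell, and none did both. The 4 that were higher at all 5 days were Itgam, Cd44, Icam1 and Vcam1. Those called at 2 or more days in the same direction were these 4 with Itgax, Selplg, Itgav, Itgb1 and Itgb4, which rose, and Itga8, Itgb6 and Pecam1, which fell. Itga4, Itgae and Itga5 rose at 1 day each. The remaining 18 comprised the 4 untested genes and 14 that passed at no day. Counts over any of the 5 days and over all 5 were not made for all genes, so these carry no background share. In a test across the 6 groups 15 members changed, where 19.7% of all genes tested did; Itga6 was among them and Itgav was not (adjusted p = 0.0423 and 0.0536).

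At day 1, 9 members rose and 1 fell, 34.5% of those tested, where 5.09% of all genes rose and 5.56% fell, 10.7% together. At day 2, 6 members rose and 2 fell, 27.6%, where 7.19% of all genes rose and 5.98% fell, 13.2% together. At day 3, 7 members rose and 1 fell, 27.6%, where 4.18% of all genes rose and 3.43% fell, 7.61% together. By day 7, 9 members rose and 1 fell, 34.5%, where 3.87% of all genes rose and 3.85% fell, 7.72% together. By day 14, 6 members rose and 1 fell, 24.1%, where 1.24% of all genes rose and 0.309% fell, 1.55% together. The median log2 fold change of the tested members was 0.47, 0.41, 0.64, 1.18 and 0.75 at days 1, 2, 3, 7 and 14, where the median of all genes was 0.05, 0.03, 0.07, 0.06 and 0.04. The 3 libraries of a day did not overlap the 3 untreated ones for 13, 14, 16, 19 and 15 members, where 31.1%, 28%, 28.4%, 28.5% and 21.9% of all genes did not overlap. With library totals in place of TMM the median of all genes moved up by 0.58 at day 3 and 0.67 at day 7 on the log2 scale, and the share of called genes that were higher went from 54.9% to 91.2% and from 50.2% to 93.2%. At days 2 and 14 that share went from 54.6% to 69.0% and from 80% to 95.9%. Without 1 library the member count fell as low as 6 at day 1 (day 1 replicate 2 left out), 4 at day 3 (untreated replicate 1 or day 3 replicate 1), 5 at day 7 (untreated replicate 1 or 3, or day 7 replicate 1) and 4 at day 14 (any untreated replicate or day 14 replicate 3).

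**Figure D1:**
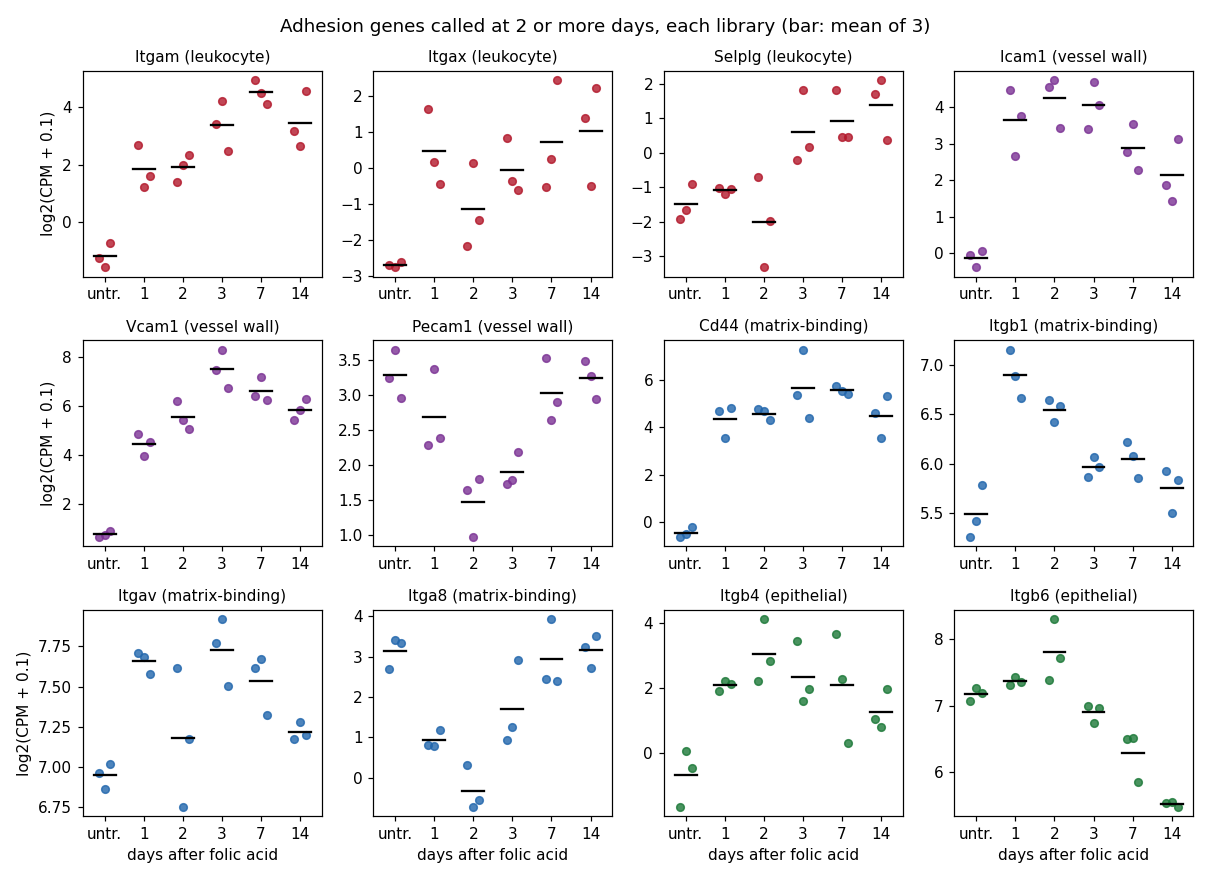
Each point is 1 library, drawn as log2(CPM + 0.1) against the group (untreated, then days after folic acid), for the 12 genes called at 2 or more days; bars are means of 3, and the vertical scale differs between panels. For Itgam, Icam1, Vcam1 and Cd44 every library after folic acid lies above the 3 untreated ones, and Itgb6 is lowest at day 14.

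Among leukocyte genes, Itgam and Itgax rose from the first day, and Itga4, Itgae and Selplg were called later. Of the 9, 2, 1, 2, 5 and 3 rose at days 1, 2, 3, 7 and 14, and none fell. Of the 8 tested this is 25%, 12.5%, 25%, 62.5% and 37.5%, where 10.7%, 13.2%, 7.61%, 7.72% and 1.55% of all genes changed, so the day 2 share was at the background. Itgam encodes the alpha chain known as CD11b, found on monocytes, macrophages and neutrophils, and Itgax encodes CD11c, found on dendritic cells and macrophages.

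Itgam measured 0.326, 0.238 and 0.501 CPM in the untreated libraries, 6.30, 2.25 and 2.90 at day 1, and 2.55, 3.89 and 4.96 at day 2. It measured 10.6, 18.3 and 5.48 CPM at day 3, 30.5, 22.5 and 17.2 at day 7, and 8.93, 6.20 and 23.2 at day 14. No library after folic acid overlapped the untreated ones, and the 3 at day 7 lay above the 3 of day 1 and of day 2. Its log2 fold change against untreated kidney was 3.47 ± 0.63 at day 1 (adjusted p = 0.0013), 3.46 ± 0.64 at day 2 (adjusted p = 0.0014), 5.06 ± 0.66 at day 3 (adjusted p = 0.000146), 6.09 ± 0.68 at day 7 (adjusted p = 3.85e-05) and 5.22 ± 0.66 at day 14 (adjusted p = 0.00036). Each call held without any 1 library. Most of the Itgam exons (3450 of 5024 bases) also belong to Gm49368 in GENCODE M21, which has no row in the table. At day 14 the value was 4.46 without replicate 3, 1.69 times lower as a fold.

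Itgax was close to its detection limit in untreated kidney, at 0.0544, 0.0476 and 0.0626 CPM. It measured 3.06, 1.03 and 0.636 CPM at day 1, 0.122, 1.01 and 0.269 at day 2 and 1.69, 0.682 and 0.551 at day 3. At day 7 it measured 0.592, 1.10 and 5.38 CPM and at day 14 2.56, 0.608 and 4.57. All 15 libraries after folic acid stood above the untreated 3, with a wide spread inside each day. On the log2 scale Itgax differed by 4.76 ± 1.17 at day 1 (adjusted p = 0.0122), 4.09 ± 1.16 at day 3 (adjusted p = 0.0366), 5.36 ± 1.18 at day 7 (adjusted p = 0.0089) and 5.49 ± 1.18 at day 14 (adjusted p = 0.0223), and 2.72 ± 1.23 did not pass at day 2 (adjusted p = 0.159). Single libraries carry these calls. The day 1 call was lost without untreated replicate 2 or day 1 replicate 1, the day 3 call on leaving out any 1 of 5 libraries (all but day 3 replicate 3), the day 7 call without untreated replicate 2, and the day 14 call without any untreated replicate or day 14 replicate 3. As a fold, the day 1 value moved 1.88 times without day 1 replicate 1, the day 3 value 1.58 times without day 3 replicate 1, the day 7 value 2.78 times without day 7 replicate 3, and the day 14 value 1.63 times without day 14 replicate 3. The highest adjusted p in these fits was 0.135. With limma-voom none of the 4 Itgax calls held (adjusted p up to 0.191), and the day 14 call was also lost with only the groups compared.

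The start-site windows of Itgam and Itgax are shown because these genes rose at 4 or more days and lie near each other on 1 chromosome. They run from 250 bases before to 50 bases after the RefSeq start (GRCm38.p6, plus strand), at chr7:128062390-128062689 for Itgam and chr7:128129300-128129599 for Itgax. Capitals mark matches on either strand to 4 motifs: NF-kappaB (GGGNNTTTCC), AP-1 (TGANTCA), PU.1 and Ets (GAGGAAG) and the GC box (GGGCGG).
Itgam: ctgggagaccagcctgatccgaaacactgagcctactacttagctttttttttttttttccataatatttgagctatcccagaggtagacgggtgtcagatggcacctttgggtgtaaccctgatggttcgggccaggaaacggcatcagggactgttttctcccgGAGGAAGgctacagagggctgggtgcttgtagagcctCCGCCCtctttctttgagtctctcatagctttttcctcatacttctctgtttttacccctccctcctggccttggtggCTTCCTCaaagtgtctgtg
Itgax: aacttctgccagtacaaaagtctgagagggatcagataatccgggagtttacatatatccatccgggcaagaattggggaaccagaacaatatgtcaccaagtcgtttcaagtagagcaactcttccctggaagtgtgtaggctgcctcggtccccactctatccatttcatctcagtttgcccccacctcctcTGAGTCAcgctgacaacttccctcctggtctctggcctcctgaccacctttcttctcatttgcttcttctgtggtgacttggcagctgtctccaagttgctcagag
The Itgam window holds the PU.1 and Ets letters at positions -84 and 32, counted from the start site, and a GC box at -47. The Itgax window holds the AP-1 letters at -56. No matches overlapped in the windows shown. Over 32851 such windows the shares with a match were 1.63% for NF-kappaB, 7.81% for AP-1, 13.6% for PU.1 and Ets and 35.7% for the GC box. Of the 12 genes called at 2 or more days 8 had a window, and a match is a description of letters only.

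Itgb2, the beta chain with which Itgam, Itgax and Itgal pair, passed at no day. It measured 0.217, 1.05 and 0.940 CPM in untreated kidney and 2.70, 4.13 and 2.64 CPM at day 7. Its 3 libraries lay above the untreated ones at days 3, 7 and 14, with log2 fold changes of 1.94 ± 0.81 (adjusted p = 0.155), 2.08 ± 0.81 (adjusted p = 0.131) and 1.96 ± 0.81 (adjusted p = 0.235). Per kilobase of exon, Itgam stood at 4.65 ± 1.33 CPM at day 7 and Itgb2 at 1.03 ± 0.278. The measured alpha chain level was thus above that of its partner there. This order is approximate, because the lengths come from GENCODE M21 and not from the annotation used for counting, and the Itgam exons overlap Gm49368.

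Selplg, which carries the glycan ligand of selectins on leukocytes, rose late. It measured 0.163, 0.214 and 0.438 CPM untreated, 0.394, 0.337 and 0.378 at day 1, and 0.510, 0 and 0.154 at day 2. It measured 0.763, 3.45 and 1.02 CPM at day 3, 3.42, 1.28 and 1.28 at day 7, and 3.17, 4.22 and 1.18 at day 14. The first 2 days overlapped the untreated range and the last 3 times lay above it. On the log2 scale Selplg rose by 2.89 ± 0.83 at day 7 (adjusted p = 0.04) and 3.41 ± 0.85 at day 14 (adjusted p = 0.0485), and 2.69 ± 0.83 at day 3 did not pass (adjusted p = 0.0537). The day 7 call was lost on leaving out any 1 of 5 libraries (all but day 7 replicate 3) and the day 14 call on leaving out any 1 of the 6. Both were lost with limma-voom, and the day 14 call also with only the groups compared. Without day 7 replicate 1 the day 7 value moved 1.56 times as a fold, to 2.25.

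Itga4, the alpha chain that binds Vcam1, rose at day 7, from 9.68, 8.63 and 6.70 CPM to 21.8, 19.8 and 14.8. The log2 fold change was 1.18 ± 0.33 (adjusted p = 0.035), and it was lost on leaving out any 1 of 5 libraries (all but day 7 replicate 3). Itgae, the alpha chain of CD103 on T cells and dendritic cells in epithelium, measured 0.272, 1.498 and 0.626 CPM untreated and 57.8, 5.10 and 2.36 at day 7. Its log2 fold change there, 4.70 ± 1.14 (adjusted p = 0.0156), rests on replicate 1: without that library it was 2.18 and did not pass (adjusted p = 0.267). The call was also lost without untreated replicate 1 or 3 and with limma-voom, and the Itga4 call with no filter.

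Itgal, the alpha chain of LFA-1 on most leukocytes, and Itgb7, the gut-homing beta chain, passed at no day. Their group means ranged from 0.521 to 2.39 CPM and from 0.0861 to 0.802 CPM, with the highest at day 14 for Itgal and at day 3 for Itgb7. Itgad, a further Itgb2 partner, had no read in the libraries of untreated kidney and of days 1, 3 and 7, which allows up to 0.0393, 0.0255, 0.0317 and 0.0344 CPM over those groups (3 reads in all, counting error only), and its mean at day 14 was 0.469 CPM. The widely expressed kinase gene Ilk was also listed with no read in untreated kidney, so a 0 here is given only as a listed 0.

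Macrophage and other leukocyte markers moved with these genes at some times and not at others. The summed level of 10 macrophage markers, all with reads in every group, ranged over 41.3 to 83.7 CPM untreated, 25.2 to 28.2 at day 1, 31.8 to 38.2 at day 2, 61.0 to 81.4 at day 3, 109 to 170.4 at day 7 and 89.6 to 147 at day 14. At day 1 and day 2, when Itgam was already higher, none of the 10 rose (edgeR) and 2 fell. Of all genes 5.09% and 7.19% rose and 5.56% and 5.98% fell at these days. The 2 that fell, Csf1r and Mertk, named after their values were seen, had log2 fold changes of -2.01 ± 0.39 (adjusted p = 0.00226) and -1.85 ± 0.41 (adjusted p = 0.00621) at day 1. At day 2 these were -1.40 (adjusted p = 0.0211) and -1.31 (adjusted p = 0.039). The Csf1r call of day 2 was lost without untreated replicate 3 or day 2 replicate 2 or 3. The Mertk call of day 2 was lost on leaving out any 1 of 5 libraries (all but untreated replicate 1). Both were also lost with library totals.

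At day 7, 6 of the 10 macrophage markers rose, where 3.87% of all genes rose. The monocyte chemokine receptor gene Ccr2 rose by 3.95 ± 0.55 on the log2 scale (adjusted p = 0.000303), Adgre1, which encodes F4/80, by 3.79 ± 0.59 (adjusted p = 0.000796), Ly86 by 3.34 ± 0.78 (adjusted p = 0.0125) and the mannose receptor gene Mrc1 by 3.24 ± 0.57 (adjusted p = 0.00174). The Ly86 call was lost without untreated replicate 1 or 3 or day 7 replicate 2, and the Adgre1 value moved 1.52 times as a fold without untreated replicate 3. The 9 leukocyte adhesion genes summed to 9.77 to 12.5 CPM untreated, 12.6 to 18.7 at day 1 and 13.5 to 15.5 at day 2. Their sum was 20.3 to 37.9 CPM at day 3, 44.9 to 117 at day 7 and 28.1 to 58.8 at day 14. Single genes weigh on this sum. Itga4 averaged 8.34 CPM of a mean sum of 11.2 untreated, and Itgae gave 57.8 of the 117 CPM in day 7 replicate 1. The part of macrophage numbers in the rise of the adhesion genes was not tested.

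The 9 neutrophil markers summed to 5.90 to 8.21 CPM untreated and 8.30 to 9.80 at day 1, and none of the 4 with enough reads passed at any day (edgeR). At day 2 the range was 6.60 to 60.3 CPM, the top value in day 2 replicate 2, with Camp and Retnlg at 0 in the 3 libraries. T cell markers summed to 2.38 to 16.5 CPM untreated and 3.29 to 5.10 at day 7, with Cd2 at 0 in the untreated libraries. The part of these cells in the leukocyte genes was not tested.

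**Figure D2:**
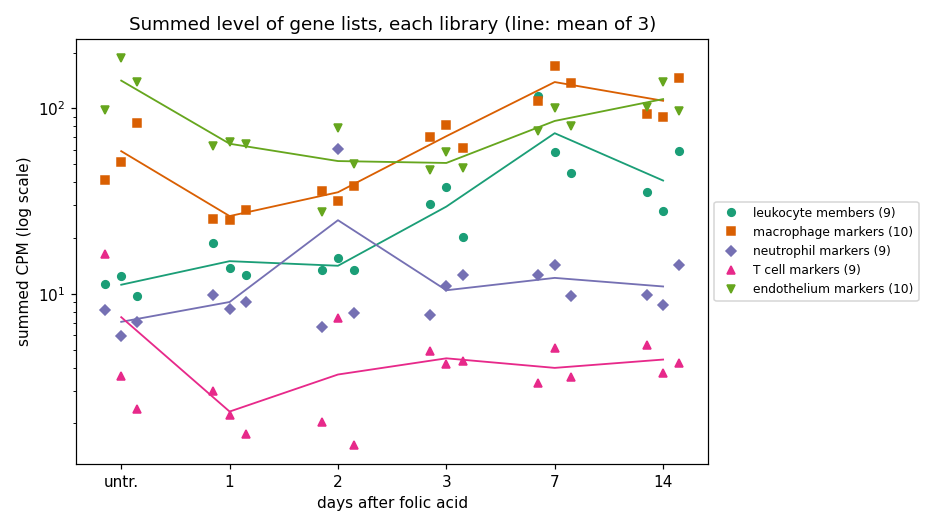
Summed CPM on a log scale of the 9 leukocyte adhesion genes and of 4 marker lists, by group, with 1 point per library and a line through the means of 3. The adhesion sum and the macrophage sum are both highest at day 7 on average, while at day 1 the macrophage sum (25.2 to 28.2 CPM) is below untreated kidney and the adhesion sum (12.6 to 18.7 CPM) is not. Itgae gives 57.8 CPM of the highest adhesion sum, 117 CPM in day 7 replicate 1.

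Among the genes listed for the vessel wall, Icam1 and Vcam1 rose at all 5 days in whole kidney, and Pecam1 fell at days 2 and 3. The cells that held this RNA were not measured. Both ligands are kept low on resting endothelium and are induced by inflammatory signals, also in other cells such as tubular epithelium. Vcam1 reached the greatest fitted change of the 29 tested genes, at day 3.

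Vcam1 measured 1.47, 1.55 and 1.75 CPM untreated, 28.8, 15.5 and 23.2 at day 1, and 72.9, 42.3 and 33.2 at day 2. It measured 176, 313 and 106 CPM at day 3, 83.3, 145 and 75.6 at day 7, and 42.5, 56.4 and 77.1 at day 14. Every library after folic acid lay far above the untreated ones, and those of days 1, 2 and 3 did not overlap each other. The log2 fold change was 3.82 ± 0.44 at day 1 (adjusted p = 1.81e-05), 4.96 ± 0.46 at day 2 (adjusted p = 1.92e-06), 6.96 ± 0.50 at day 3 (adjusted p = 2.62e-07), 5.99 ± 0.48 at day 7 (adjusted p = 1.71e-06) and 5.21 ± 0.47 at day 14 (adjusted p = 1.83e-05). Each call held without any 1 library, the day 3 value ranging from 6.47 to 7.26.

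Icam1, the main ligand of the Itgb2 integrins, peaked earlier. It measured 0.870, 0.666 and 0.940 CPM untreated, 22.1, 6.21 and 13.5 at day 1, and 23.3, 26.5 and 10.7 at day 2. It measured 10.4, 25.4 and 16.7 CPM at day 3, 6.74, 11.5 and 4.79 at day 7, and 3.51, 2.60 and 8.60 at day 14. All lay above the untreated range, and days 1, 2 and 3 overlapped each other. On the log2 scale Icam1 rose by 4.09 ± 0.61 at day 1 (adjusted p = 0.000212), 4.62 ± 0.62 at day 2 (adjusted p = 7.89e-05), 4.42 ± 0.62 at day 3 (adjusted p = 0.000265), 3.23 ± 0.59 at day 7 (adjusted p = 0.00241) and 2.59 ± 0.58 at day 14 (adjusted p = 0.0283). The day 14 call was lost with limma-voom, with only the groups compared, and without any untreated replicate or day 14 replicate 3, and without the latter the value was 1.90, 1.61 times lower as a fold.

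Pecam1, a junction molecule of endothelium, platelets and some leukocytes, measured 9.41, 12.5 and 7.70 CPM untreated, 4.77, 10.2 and 5.15 at day 1, and 3.02, 1.86 and 3.38 at day 2. It measured 3.22, 3.33 and 4.46 CPM at day 3, 11.4, 6.16 and 7.39 at day 7, and 11.1, 9.61 and 7.62 at day 14. Only days 2 and 3 lay wholly below the untreated range. Pecam1 fell by 1.81 ± 0.40 on the log2 scale at day 2 (adjusted p = 0.00564) and by 1.43 ± 0.39 at day 3 (adjusted p = 0.0321), and the later call was lost on leaving out any 1 of 5 libraries (all but untreated replicate 3), with no filter on low counts, and with library totals, where the log2 fold change was -0.88.

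The sum of endothelial markers was lower at the same days. The 10 markers, which include Pecam1 and Icam2, summed to 98.7 to 187 CPM untreated, 63.1 to 65.8 at day 1, 27.6 to 78.1 at day 2, 46.7 to 57.9 at day 3, 75.3 to 101 at day 7 and 96.9 to 138 at day 14, with none at 0 in a whole group. At day 2, 4 of the 10 fell, Pecam1 itself being 1 of them, and none rose, where 5.98% of all genes fell and 7.19% rose. The VEGF receptor gene Kdr fell by 3.26 ± 0.44 on the log2 scale (adjusted p = 8.36e-05) and Emcn by 2.77 ± 0.39 (adjusted p = 0.000122). The part of endothelial RNA in the Pecam1 values was not tested. Icam1 and Vcam1 were called higher at all 5 days, those with a lower endothelial sum and those where it overlapped the untreated range.

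Icam2, which resting endothelium also carries, passed at no day, with group means from 0.324 CPM at day 2 to 1.30 CPM at day 14. Sele, the endothelial selectin, had no read in untreated kidney and Selp, the selectin of platelets and endothelium, none untreated or at day 1. Their highest group means, both at day 3, were 0.379 and 0.0787 CPM, each from reads in 1 of the 3 libraries. Platelet markers summed to 1.26 to 2.66 CPM untreated and at most 11.9 CPM, in a day 14 library.

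The windows of Icam1 and Cd44, the other genes higher at all 5 days that had one, are shown on the same terms, at chr9:21015690-21015989 (plus strand) and chr2:102901616-102901915 (minus strand) of GRCm38.p6.
Icam1: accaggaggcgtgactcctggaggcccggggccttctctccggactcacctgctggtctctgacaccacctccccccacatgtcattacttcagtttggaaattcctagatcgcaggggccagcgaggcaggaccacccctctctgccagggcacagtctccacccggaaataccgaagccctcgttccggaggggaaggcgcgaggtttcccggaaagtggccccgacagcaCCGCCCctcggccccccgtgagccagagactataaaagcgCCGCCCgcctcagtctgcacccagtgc
Cd44: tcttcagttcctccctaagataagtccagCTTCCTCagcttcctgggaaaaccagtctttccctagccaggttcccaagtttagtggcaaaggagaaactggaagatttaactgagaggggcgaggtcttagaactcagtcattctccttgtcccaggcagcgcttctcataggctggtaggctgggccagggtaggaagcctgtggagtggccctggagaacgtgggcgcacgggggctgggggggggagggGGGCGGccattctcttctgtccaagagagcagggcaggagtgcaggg
The Icam1 window holds GC boxes at positions -17 and 24, and the Cd44 window the PU.1 and Ets letters at -221 and a GC box at 4. The NF-kappaB letters as spelled above were in none of the 4 windows shown. Other spellings of that motif were not searched, so this does not show that a window lacks an NF-kappaB site.

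**Figure D3:**
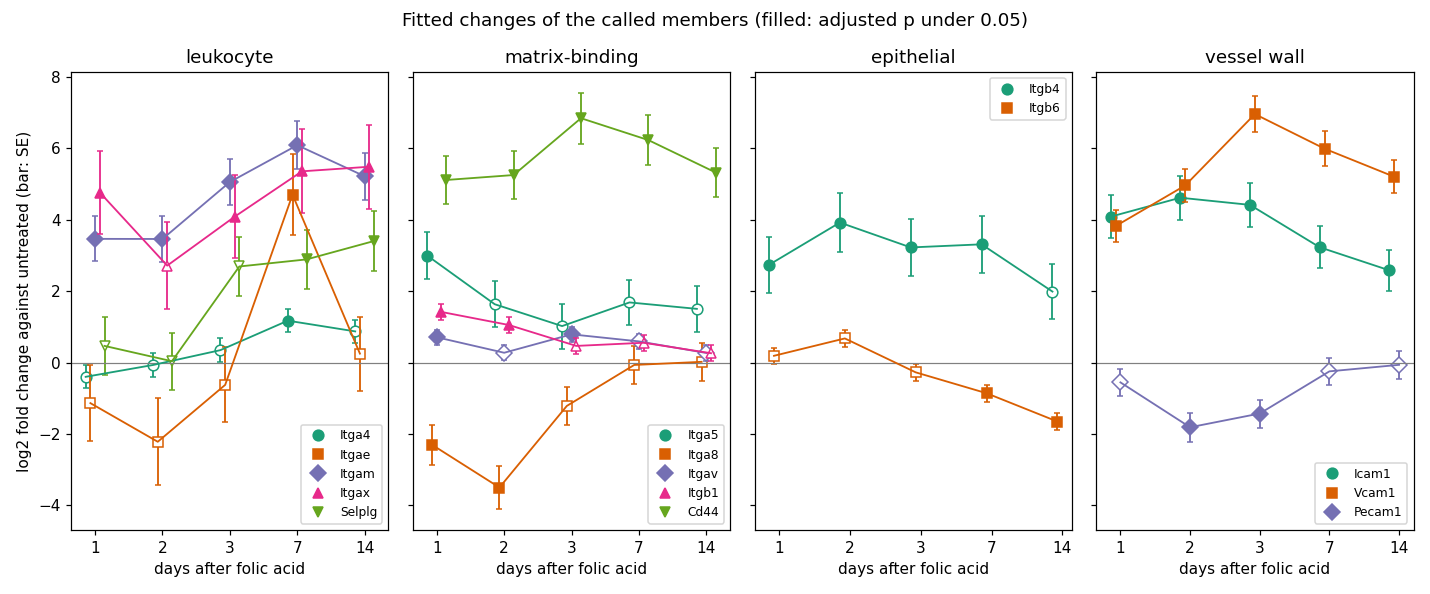
Fitted log2 fold change against untreated kidney (bars SE) at each day for the 15 genes called at 1 or more days, split by role, with filled symbols where the adjusted p was under 0.05. Vcam1 at day 3 (6.96) and Cd44 at day 3 (6.85) stand highest, Itga8 at day 2 (-3.50) lowest, and Itgb6 passes zero on its way to -1.65 at day 14.

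Among the matrix-binding genes, Cd44 rose at all 5 days, Itgb1 at days 1 and 2 and Itgav at days 1 and 3, and Itga8 fell at days 1 and 2. Of the 14, 4 rose and 1 fell at day 1, 2 rose and 1 fell at day 2, 2 rose at day 3, and Cd44 alone rose at days 7 and 14. Of the 13 tested this is 38.5%, 23.1%, 15.4%, 7.69% and 7.69%, and the day 7 share was at the background of 7.72%. Cd44 binds hyaluronan and also osteopontin, is carried by leukocytes, and appears on injured tubules.

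Cd44 measured 0.544, 0.594 and 0.752 CPM untreated, 25.8, 11.8 and 27.8 at day 1, and 27.1, 25.4 and 19.5 at day 2. It measured 40.6, 155 and 21.0 CPM at day 3, 53.2, 46.8 and 41.8 at day 7, and 24.4, 11.6 and 39.5 at day 14. Every later library lay above the untreated ones, and day 3 replicate 2 stood apart from all others. On the log2 scale Cd44 rose by 5.12 ± 0.67 at day 1 (adjusted p = 6.71e-05), 5.25 ± 0.67 at day 2 (adjusted p = 5.57e-05), 6.85 ± 0.71 at day 3 (adjusted p = 1.47e-05), 6.23 ± 0.70 at day 7 (adjusted p = 3.85e-05) and 5.32 ± 0.68 at day 14 (adjusted p = 0.00036). Without day 3 replicate 2 the day 3 value was 5.62, 2.34 times lower as a fold and still past the threshold.

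Markers of injured tubule moved in another order. The 7 markers, Havcr1 and Lcn2 among them, summed to 22.9 to 35.9 CPM untreated, 2474 to 2586 at day 1 and 1243 to 1445 at day 2. They summed to 480.3 to 845 CPM at day 3, 244 to 347 at day 7 and 66.8 to 172 at day 14. All 7 rose at days 1, 2, 3 and 7, where 5.09%, 7.19%, 4.18% and 3.87% of all genes rose. The marker sum was highest at day 1, while the group mean of Cd44 was highest at day 3. That day 3 mean rests on replicate 2, at 155 CPM beside 40.6 and 21.0 in the other libraries. Without it the log2 fold change of Cd44 against untreated kidney was 5.62 at day 3, where that of day 7 was 6.23. The 8 fibroblast markers, none at 0 in a whole group, summed to 31.2 to 56.7 CPM untreated, 49.9 to 93.2 at day 1, 51.3 to 116 at day 2, 116 to 302 at day 3, 131 to 263 at day 7 and 150 to 320.1 at day 14. At day 3 their sum was highest in replicate 2, the library that was also highest for Cd44 and Vcam1. The part of injured tubule cells and of fibroblasts in the Cd44 and Vcam1 values was not tested.

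Itgb1, the beta chain shared by most matrix-binding integrins, measured 38.1, 42.6 and 54.9 CPM untreated, 143, 118 and 102 at day 1, and 100.1, 85.5 and 95.6 at day 2. It measured 58.1, 66.9 and 62.5 CPM at day 3, 74.6, 67.2 and 57.5 at day 7, and 60.5, 45.2 and 57.0 at day 14. Days 1 and 2 stood clear of the untreated range, and day 14 overlapped it. Itgb1 rose on the log2 scale by 1.42 ± 0.22 at day 1 (adjusted p = 0.000347) and 1.05 ± 0.22 at day 2 (adjusted p = 0.00368), and both held without any 1 library. It was 0.47 ± 0.22 at day 3 (adjusted p = 0.211), 0.56 ± 0.22 at day 7 (adjusted p = 0.132) and 0.26 ± 0.22 at day 14 (adjusted p = 0.62).

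Itgav, the alpha chain that pairs with Itgb1, Itgb3, Itgb5, Itgb6 and Itgb8, measured 125, 116 and 129 CPM untreated, 209, 206 and 191 at day 1, and 196, 108 and 144 at day 2. It measured 218, 242 and 181 CPM at day 3, 196, 203 and 160.0 at day 7, and 144, 155 and 147 at day 14. The groups of days 1, 3, 7 and 14 lay above the untreated range, and day 2 was split. Itgav rose by 0.71 ± 0.21 on the log2 scale at day 1 (adjusted p = 0.0382) and by 0.79 ± 0.21 at day 3 (adjusted p = 0.0288). The day 1 call was lost on leaving out any 1 of the 6 libraries. It was also lost under 4 other settings (RLE scaling, library totals alone, no filter and the replicate block, adjusted p up to 0.0751). The day 3 call was lost on leaving out any 1 of 5 libraries (all but day 3 replicate 3) and with no filter.

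Itga8, which pairs with Itgb1, binds nephronectin and in adult kidney marks mesangial and other mesenchymal cells, measured 6.36, 10.5 and 9.96 CPM untreated, 1.66, 1.62 and 2.15 at day 1, and 1.14, 0.507 and 0.577 at day 2. It measured 1.79, 2.27 and 7.48 CPM at day 3, 5.39, 15.1 and 5.20 at day 7, and 9.41, 6.53 and 11.3 at day 14. The first 2 days lay below the untreated range without overlap, and days 3 to 14 reached into it. Itga8 fell by 2.30 ± 0.56 on the log2 scale at day 1 (adjusted p = 0.0113) and by 3.50 ± 0.60 at day 2 (adjusted p = 0.000836), and was -0.07 ± 0.53 at day 7 (adjusted p = 0.964). The day 1 call was lost without day 1 replicate 2 (adjusted p = 0.0534). The 5 mesangial markers, Itga8 among them, summed to 18.8 to 39.5 CPM untreated and 14.6 to 23.5 at day 2, and only Itga8 of the 5 fell. Its exons overlap those of E030013I19Rik on the opposite strand by 372 bases, as those of Itgav and Itga4 overlap Gm13684 and Cerkl by 634 and 1124, and the strand setting of the counting is not given in the sources used here, so these reads cannot be told apart.

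Itga5, the alpha chain of the main fibronectin receptor, measured 3.26, 2.45 and 2.57 CPM untreated and 14.4, 43.8 and 7.79 at day 1, with no overlap. Its log2 fold change was 3.00 ± 0.66 (adjusted p = 0.00605). Without day 1 replicate 2 the value was 2.01 and did not pass (adjusted p = 0.0571). At days 2, 3, 7 and 14 it was 1.64 ± 0.64, 1.02 ± 0.63, 1.69 ± 0.64 and 1.51 ± 0.64, with adjusted p from 0.103 to 0.366.

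The other tested matrix-binding chains passed at no day. The laminin and collagen receptor chain genes Itga1 and Itga2 had group means of 38.1 to 66.3 CPM and 0.753 to 4.49 CPM. The platelet chain gene Itga2b ranged from 0.342 to 1.38 CPM, the muscle laminin receptor chain gene Itga7 from 0.384 to 1.96 CPM and Itga9, which binds tenascin and osteopontin, from 2.71 to 8.65 CPM. Among the beta chains, Itgb3 ranged from 0.806 to 2.80 CPM, Itgb5 from 7.49 to 15.9 CPM and Itgb8 from 153 CPM at day 1 to 254 CPM untreated. The 3 libraries of Itgb8 lay below the untreated ones at days 1, 7 and 14, with log2 fold changes of -0.73 ± 0.29, -0.58 ± 0.29 and -0.66 ± 0.29 (adjusted p = 0.119, 0.244 and 0.264). Itga11, a fibroblast collagen receptor chain, was too low to test, with a highest group mean of 0.256 CPM at day 14.

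Among the 4 epithelial chains, Itgb4 rose from day 1 to day 7 and Itgb6 fell at days 7 and 14. Itgb6 is restricted to epithelium and is kept in kidney by distal tubule and collecting duct, and Itgb4 joins basal epithelial cells to laminin in hemidesmosomes.

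Itgb6 measured 134, 153 and 146 CPM untreated, 159, 173 and 163 at day 1, and 168, 315 and 211 at day 2. It measured 128, 106 and 124 CPM at day 3, 90.8, 91.0 and 57.3 at day 7, and 46.5, 46.9 and 44.6 at day 14. The 315 CPM at day 2 came from replicate 2, the library with the fewest reads. Days 1 and 2 lay above the untreated range, days 3, 7 and 14 below it, and the groups of days 3, 7 and 14 did not overlap each other. Itgb6 fell by 0.86 ± 0.23 on the log2 scale at day 7 (adjusted p = 0.0309) and by 1.65 ± 0.24 at day 14 (adjusted p = 0.00105), and was 0.19 ± 0.23 at day 1 (adjusted p = 0.683), 0.68 ± 0.23 at day 2 (adjusted p = 0.0623) and -0.27 ± 0.23 at day 3 (adjusted p = 0.55). The day 14 call held without any 1 library. The day 7 call was lost on leaving out any 1 of 5 libraries (all but day 7 replicate 2) and with library totals alone, where the adjusted p was 0.635. Collecting duct markers summed to 84.3 to 137 CPM untreated, 33.5 to 48.6 at day 1 and 53.7 to 62.7 at day 2. Their sum was at most 66.5 CPM at day 3, 75.2 to 109 at day 7 and 93.1 to 104 at day 14. It lay below the untreated range at days 1, 2 and 3, while Itgb6 was above its own at days 1 and 2. Avpr2 was at 0 at days 2 and 14. Of the 5 tested markers 3, 2 and 1 fell at days 1, 2 and 3, and none rose (edgeR). Of all genes 5.56%, 5.98% and 3.43% fell at these days. No marker passed at day 7 or 14. The part of the collecting duct in the Itgb6 values was not tested.

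Itgb4 measured 0.217, 0.951 and 0.626 CPM untreated, 3.63, 4.54 and 4.28 at day 1, and 4.52, 17.2 and 7.03 at day 2. It measured 10.7, 2.92 and 3.80 CPM at day 3, 12.7, 4.74 and 1.14 at day 7, and 1.95, 1.62 and 3.83 at day 14. No later library fell into the untreated range, and day 7 replicate 3 came nearest to it. The log2 fold change was 2.74 ± 0.78 at day 1 (adjusted p = 0.0301), 3.92 ± 0.82 at day 2 (adjusted p = 0.00365), 3.23 ± 0.79 at day 3 (adjusted p = 0.0178), 3.31 ± 0.80 at day 7 (adjusted p = 0.0149) and 1.99 ± 0.77 at day 14 (adjusted p = 0.206). The day 1 call was lost on leaving out any 1 of 5 libraries (all but untreated replicate 2). The day 3 call was lost without untreated replicate 1 or 3 or day 3 replicate 1, and the day 7 call without untreated replicate 1 or 3 or day 7 replicate 1. As a fold, the day 2 value moved 1.65 times without day 2 replicate 2, the day 3 value 1.73 times without day 3 replicate 1 and the day 7 value 2.10 times without day 7 replicate 1. With limma-voom the calls of days 1, 3 and 7 were lost as well (adjusted p = 0.0845, 0.0753 and 0.111).

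Itga6, the laminin receptor chain that pairs with Itgb4, and Itga3, a laminin receptor chain of podocytes and tubules, passed at no day against untreated kidney. Itga6 ranged from 37.3 CPM at day 14 to 74.0 CPM at day 1 as a group mean. Itga3 measured 33.3, 9.46 and 15.7 CPM untreated and 22.5, 177 and 23.4 at day 2. There replicate 2, the library with the fewest reads, stood apart, and the log2 fold change was 1.92 ± 0.65 (adjusted p = 0.0562).

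Per kilobase of exon the order of the members changed with time. The lengths are from GENCODE M21 and not from the annotation used for counting, so the order of different genes is approximate. In untreated kidney the highest were Itgb8 at 22.9 ± 3.10 CPM per kb and Itgb6 at 20.3 ± 1.36, whose libraries overlapped, followed by Itgav at 11.5 ± 0.627 and Itgb1 at 11.1 ± 2.13, which overlapped each other and lay below Itgb6. At day 1 Itgb1 was first at 29.6 ± 5.05 CPM per kb, then Itgb6 at 23.2 ± 1.02, Itgav at 18.8 ± 0.923 and Itgb8 at 13.9 ± 0.569, with no overlap between neighbours. Vcam1 went from 0.179 ± 0.0167 CPM per kb untreated to 22.3 ± 11.8 at day 3, where it was first, overlapping Itgav at 19.9 ± 2.85. At day 14 Itgb8, Itgav and Itgb1 led at 14.5 ± 3.64, 13.9 ± 0.534 and 13.3 ± 1.97 CPM per kb and overlapped, and Itgb6 had come to 6.47 ± 0.172.

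**Figure D4:**
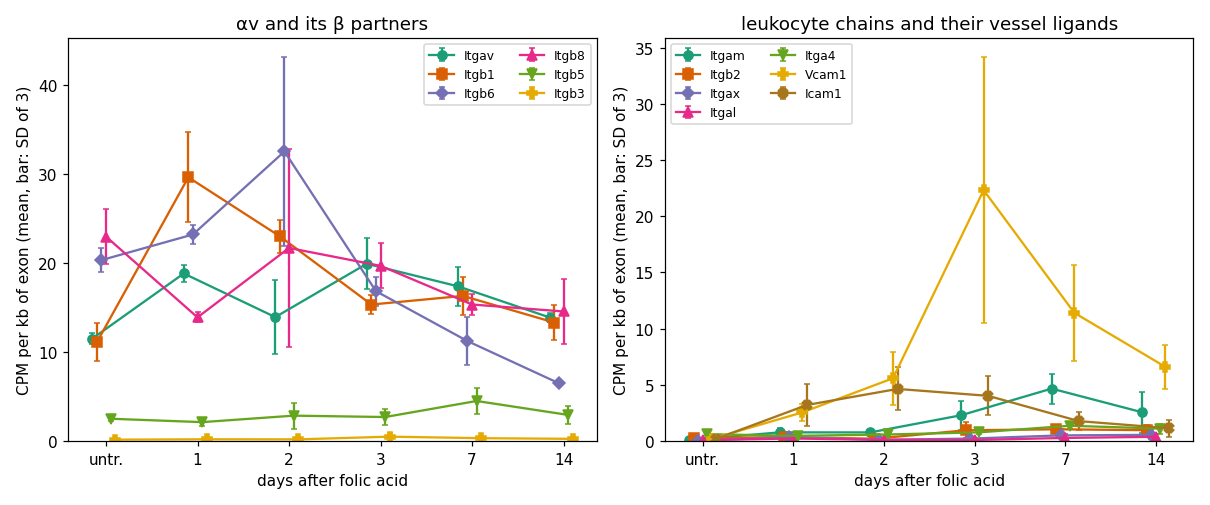
Mean level per kilobase of exon (CPM per kb, bars SD of 3 libraries) by group, on the left for Itgav and the beta chains it pairs with and on the right for leukocyte chains beside Vcam1 and Icam1, each panel with its own scale from 0. Itgb6 declines after day 2 to 6.47 at day 14, and Vcam1 peaks at 22.3 at day 3.

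Between consecutive times, Vcam1 alone of the members changed. From day 2 to day 3 it rose by 2.00 ± 0.40 on the log2 scale (adjusted p = 0.0354), where 0.22% of all genes rose and 0.0297% fell, 0.25% together, and the call was lost without day 2 replicate 2 or 3 or day 3 replicate 1 or 2, with limma-voom and with only the groups compared. No member passed from day 1 to day 2, from day 3 to day 7 or from day 7 to day 14 with edgeR, where 0.0594%, 0.0178% and 0.0178% of all genes did. Of all genes 0.0416% rose and 0.0178% fell from day 1 to day 2, 0.0178% rose and 0% fell from day 3 to day 7, and 0.00594% rose and 0.0119% fell from day 7 to day 14. The libraries did not overlap for 4, 10, 6 and 5 members over the 4 steps in order of time, where 13.8%, 15.6%, 14.6% and 12.4% of all genes did not. At an unadjusted p under 0.05 there were 5, 7 and 4 members in those comparisons, with DESeq2 0, 1 and 1, and with limma-voom none.

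A pair of wider comparisons, added after the data were seen, shares no library with untreated kidney or with each other. From day 1 to day 7, 5 members rose and 2 fell, 24.1% of those tested, where 2.66% of all genes rose and 1.85% fell, 4.51% together. The libraries of the 2 days did not overlap for 15 members, where 25.1% of all genes did not. Vcam1 rose by 2.17 ± 0.40 on the log2 scale (adjusted p = 0.00371), Itgam by 2.62 ± 0.55 (adjusted p = 0.0101), Itga4 by 1.57 ± 0.33 (adjusted p = 0.0101), Itga8 by 2.24 ± 0.56 (adjusted p = 0.0258) and Itgae by 5.84 ± 1.21 (adjusted p = 0.0092). Itgb1 fell by 0.86 ± 0.22 (adjusted p = 0.0278) and Itgb6 by 1.05 ± 0.23 (adjusted p = 0.0145). Only the Vcam1 call of these held without any 1 library. The Itgae call was lost without day 7 replicate 1 (log2 fold change 3.28), the Itga4 call without day 1 replicate 1, the Itgam call without day 1 replicate 2 or 3, the Itga8 call without any day 1 replicate or day 7 replicate 2 (value 1.54 without the last), the Itgb1 call without day 1 replicate 1 or 2 or day 7 replicate 2 or 3, and the Itgb6 call without day 1 replicate 2 or day 7 replicate 3. Without day 1 replicate 2, 3 of the 7 passed. With library totals the Itgb1 and Itgb6 calls were lost, and the Itgb1 call also with no filter or only the groups compared.

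From day 2 to day 14, 5 members rose and 5 fell, 34.5% of those tested, where 4.68% of all genes rose and 4.74% fell, 9.43% together. The libraries did not overlap for 14 members, where 24.6% of all genes did not. Itgb6 fell by 2.33 ± 0.24 on the log2 scale (adjusted p = 2.23e-05), Itga8 rose by 3.52 ± 0.60 (adjusted p = 0.00153) and Pecam1 by 1.75 ± 0.40 (adjusted p = 0.0107), and these 3 calls held without any 1 library. Icam1 fell by 2.03 ± 0.54 (adjusted p = 0.024), Itga6 by 0.91 ± 0.24 (adjusted p = 0.0233) and Itgb1 by 0.79 ± 0.22 (adjusted p = 0.0291). Itga3 fell by 2.25 ± 0.65 (adjusted p = 0.0366), and by 0.57 without day 2 replicate 2, the library with 177 CPM. Selplg rose by 3.37 ± 0.84 (adjusted p = 0.0176), Itga2 by 2.47 ± 0.76 (adjusted p = 0.0476) and Itgam by 1.76 ± 0.55 (adjusted p = 0.0493).

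Of the other 7 calls, each was lost without at least 1 library: Selplg without day 2 replicate 2 or 3 or day 14 replicate 2, Itga6 without day 2 replicate 1 or day 14 replicate 1 or 2, and Itga3 without day 2 replicate 2 or day 14 replicate 1 or 2. The Icam1 call was lost without day 2 replicate 1 or 2 or day 14 replicate 1 or 2, the Itga2 call without day 2 replicate 1 or 2 or day 14 replicate 2 or 3, the Itgb1 call without any library but day 2 replicate 2, and the Itgam call without any but day 14 replicate 2. As a fold, the Selplg value moved 2.42 times without day 2 replicate 1, the Itga2 value 2.01 times without day 14 replicate 2, the Itgam value 1.69 times and the Icam1 value 1.60 times without day 14 replicate 3. Without day 14 replicate 2, 4 of the 10 passed. With only the groups compared 2 passed, Itga8 and Itgb6. With library totals the calls of Itgam, Itga2, Itgb1, Itga3, Itga6 and Icam1 were lost, and with limma-voom those of Itgam, Itga2 and Itga3. The Itgam call was further lost with RLE factors, without mitochondrial genes and with the filter of 10 reads, and the Itgb1 call with no filter.

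In some groups many members were highest, or lowest, in the same library. Of the 9 genes that rose at 2 or more days, 7 were highest in day 1 replicate 1 among the day 1 libraries, 7 in day 3 replicate 2, 6 in day 14 replicate 3 and 8 in untreated replicate 3, and 7 were lowest in day 7 replicate 3. At day 2, 5, 3 and 1 were highest in replicates 1, 2 and 3, and 3 were lowest in each. The same counts over all genes were not made, so no difference between libraries is concluded from these 9 genes.

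Ligands and intracellular partners of integrins were counted beside the receptors. Of 24 genes of integrin ligands 23 were tested, and 8 rose and 1 fell at day 1, while 12, 9, 7 and 6 rose and none fell at days 2, 3, 7 and 14. That is 39.1%, 52.2%, 39.1%, 30.4% and 26.1% over the 5 days, against 10.7%, 13.2%, 7.61%, 7.72% and 1.55% of all genes. Spp1, which encodes osteopontin, a ligand of Itgav, Itga9 and Cd44, rose most at day 2, by 7.45 ± 0.54 on the log2 scale (adjusted p = 1.31e-07). The fibrinogen chain gene Fgg, whose protein binds Itgam with Itgb2, rose by 5.404 ± 0.73 at day 1 (adjusted p = 8.83e-05), and Fgb went from 0 in the untreated libraries to 10.3 ± 5.35 CPM (adjusted p = 0.000761). Lamb3, a laminin chain of the hemidesmosome, rose by 5.75 ± 1.33 at day 2 (adjusted p = 0.00788), and by 2.98 without day 2 replicate 2, where it did not pass, nor with limma-voom or only the groups compared.

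Of 30 genes of talin, kindlin and other adaptors 29 were tested, and 7, 4, 5, 4 and 2 rose at days 1, 2, 3, 7 and 14, while 2, 2, 1, 1 and 0 fell. That is 31.0%, 20.7%, 20.7%, 17.2% and 6.90% over the 5 days, against the same shares of all genes. The actin crosslinker gene Actn1 rose by 2.99 ± 0.41 on the log2 scale at day 1 (adjusted p = 0.000101). Apbb1ip, the Rap1 effector of leukocytes that recruits talin, fell by 2.99 ± 0.67 at day 2 (adjusted p = 0.00586). Parvb fell by 2.74 ± 0.69 at day 7 (adjusted p = 0.0189), which was lost without untreated replicate 1 or day 7 replicate 1 or 2 or with limma-voom and was -1.83 without the first. Lims2 rose by 2.55 ± 0.69 at day 3 (adjusted p = 0.0302), was 0.57 without day 3 replicate 2 and was also lost without any untreated replicate, with limma-voom and with only the groups compared.

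Of 22 other leukocyte traffic genes 18 were tested, and 1, 2, 1, 0 and 0 rose at days 1, 2, 3, 7 and 14 while 1, 3, 0, 1 and 0 fell (edgeR). In all 11.1%, 27.8%, 5.56%, 5.56% and 0% changed, where 10.7%, 13.2%, 7.61%, 7.72% and 1.55% of all genes did, a share above the background at day 2 and near or below it at the other days. Sirpa, which encodes a receptor of myeloid cells for CD47, rose by 2.78 ± 0.57 on the log2 scale at day 3 (adjusted p = 0.00556), and by 1.95 without day 3 replicate 2. Gcnt1, an enzyme that builds the branched glycans selectins bind, fell by 1.86 ± 0.31 at day 1 (adjusted p = 0.000569). Alcam rose by 1.52 ± 0.46 at day 2 (adjusted p = 0.0338) and did not pass on leaving out any 1 of 5 libraries (all but day 2 replicate 1), with limma-voom or with only the groups compared.

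By Pearson correlation of the 6 group means of log2 CPM, the genes most like Vcam1 were Rgs20, Maged2 and 4933413C19Rik (r = 0.997, 0.996 and 0.993). Those most like Itgb6 were Washc5, Pi4kb and Gm11560 (r = 0.992 each), those most like Itgav were Hist1h1b, Ifih1 and Zc3h12a (r = 0.988, 0.988 and 0.984), and those most like Itgb2 were Cmklr1, Arntl2 and Neurl3 (r = 0.995, 0.993 and 0.991). These are descriptions over 6 points, chosen from all genes tested, and the points share their libraries.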

How the data were processed

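Total RNA of whole frozen kidney was amplified with NuGEN SPIA reagents, per the labels' protocols. The authors deposited counts of reads per Ensembl gene; the submitters' processing notes name cutadapt, TopHat2 2.07, HTSeq, DESeq and the build NCBIM37. The strand setting and the annotation release are not given in the sources used here. A second set of files, scaled by the authors, was not used. Per library, 5 rows that name no gene were left out. Reads with more than 1 alignment, in no annotated feature or ambiguous between genes together made up 34.5 to 51.3% of the total. Those with more than 1 alignment, a part of that share, made up 18.4 to 28.5%, which bears on related genes such as Itgam, Itgax and Itgad.

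Genes were named through a reference table of Ensembl identifiers and symbols, which matched 32919 of 37991 identifiers. Tests used edgeR 4.0.16 in R 4.3.3: filterByExpr, TMM, and a quasi-likelihood F test (two-sided) over 18 libraries with group as the only term, called at a Benjamini-Hochberg adjusted p under 0.05. The script was tested on simulated data. The SE is the log2 fold change divided by the square root of F. Alternatives used RLE factors, library totals, no mitochondrial genes, other filters, DESeq2 1.42.0, limma-voom 3.58.1, the replicate block, only the groups compared, and each library left out. Exon lengths are GENCODE M21 unions, and promoter windows are RefSeq's (GRCm38.p6). No 2 libraries of the same group were copies (chi-square per degree of freedom at least 38.0), and libraries of different groups were not compared in this way. Intervals and floors cover counting error only.

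The members and lists were chosen with earlier results of these data known. Genes outside the 33 were named by rule: per list, up to 4 called genes with the greatest change whose higher group averaged 5 CPM or more.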

Additional observations from a re-analysis of the deposited data

How the results depend on the processing

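Of 43 called pairs of a member and a day, 25 stayed past the threshold in every fit without 1 library and under the 9 other alternatives, and none changed sign. Of 102 uncalled pairs, 17 passed under some alternative. Leaving out 1 library, the member count ranged from 12 to 20 across the 6 groups, 6 to 8 at day 1, 8 to 10 at day 2, 4 to 8 at day 3, 5 to 9 at day 7 and 4 to 6 at day 14. It ranged from 0 to 2 for day 3 against day 2, 3 to 6 for day 7 against day 1 and 4 to 8 for day 14 against day 2, and was 0 in the other consecutive steps. At day 7 the count was 17 with library totals and 6 with limma-voom, and at day 14 it was 4 with limma-voom and 4 with only the groups compared. For day 3 against day 2 it was 2 with no filter, 4 with DESeq2, and 0 with limma-voom, the replicate block or only the groups compared. For day 7 against day 3 and for day 14 against day 7 it was 1 with no filter and 1 with DESeq2. For day 14 against day 2 it was 4 with library totals and 2 with only the groups compared. The cause was not tested.

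Replicate numbers carry no stated pairing, and the 45 same-numbered pairs of libraries had correlations of their deviations from -0.0543 to 0.0416. With the replicate block, which uses up degrees of freedom, the member count was 13 across the 6 groups, 9, 8, 6, 7 and 5 at days 1, 2, 3, 7 and 14, and 7 each for day 7 against day 1 and day 14 against day 2. The calls it lost against untreated kidney were Itgav at day 1, Itgax and Pecam1 at day 3, Itga4, Itgae and Selplg at day 7, and Selplg and Icam1 at day 14.

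Over all genes, the count across the 6 groups was 3315, with DESeq2 5395 and with limma-voom 2101. DESeq2 gave 2160 at day 3 (1280 with edgeR), 2151 at day 7 (1298), 922 at day 14 (260), 1513 for day 7 against day 1 (759) and 2502 for day 14 against day 2 (1586). With library totals it was 2238 at day 3, 2565 at day 7, 435 at day 14, 166 for day 3 against day 2 (42), 0 for day 7 against day 3 (3) and 1209 for day 7 against day 1. With only the groups compared it was 1186 at day 2 (2216), 71 at day 14 and 325 for day 14 against day 2. With no filter it was 480 at day 14, and limma-voom gave 998 for day 14 against day 2. In the consecutive steps, where edgeR called 10, 42, 3 and 3 genes, DESeq2 called 515, 724, 217 and 147, and with no filter 248, 388, 48 and 32 passed. Limma-voom gave 12 for day 3 against day 2 and 11 for day 7 against day 3, and fits with only the groups compared called 0 in all 4 steps. Low reads limit some levels: over the 3 untreated libraries Itgax had 4 reads, Itgb7 8, Selplg 19 and Itga11 2.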
